A study of Homo sapiens with 6 samples.

Results

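The genes described here are 10 spliceosomal small nuclear RNA (snRNA) genes: RNU2-2P, RNU4-1, RNU4-2, RNU5A-1, RNU5B-1, RNU5D-1, RNU5E-1, RNU11, RNU12 and RNU4ATAC. They were taken from the 61853 gene entries of the count table by symbol, and each symbol matched 1 entry. The set was chosen with the difference between the days in view, so the members' own differences are given as a description, with no test. Total RNA was sequenced from H9, an established human embryonic stem cell line, with 3 libraries from each of day 30 and day 0 of a differentiation into arcuate neurons, the neurons of a hypothalamic nucleus. The day 30 cells had gone through KSR and N2 media with SHH (sonic hedgehog), purmorphamine, SB431542 and LDN-193189, then N2 medium with B-27 and DAPT, a replating with ROCK inhibitor, and a last phase with BDNF. The day 0 cells were H9 cells on matrigel at the start of that protocol, and no genetic change is labelled in either group. The study asked how the factors that process pre-rRNA change over this course, and the snRNAs were not its subject.

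The spliceosome removes introns with RNA and protein particles named for their snRNAs. In the major spliceosome U1 pairs with the 5′ splice site, U2 with the branch point, and U4 arrives paired to U6 in a particle with U5, whose loop holds the exon ends. In the minor spliceosome, which serves a rare class of introns, U11, U12, U4atac and U6atac take the places of U1, U2, U4 and U6, and U5 is shared. RNU2-2P carries a pseudogene symbol but is known to be transcribed. Inherited or new variants in RNU4-2, RNU2-2P, RNU12 and RNU4ATAC are known causes of disorders of the developing nervous system. Most snRNAs are made by RNA polymerase II, get a ring of Sm proteins in the cytoplasm and return to the nucleus. U6 and U6atac are made by RNA polymerase III.

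The sequences of RNU2-2P and the U4 members are shown with a copy of U2 from chromosome 17, because near-identical copies decide which gene a read is counted for. They are the GENCODE release 29 transcripts on GRCh38 (hg38), 5′ to 3′ on the gene's own strand. In RNU2-2P (chr11:62841619-62841809, minus strand, 191 bases) and the U2 copy (chr17:43251829-43252019, minus strand, 191 bases), capitals mark the 8 positions at which they differ.
RNU2-2P: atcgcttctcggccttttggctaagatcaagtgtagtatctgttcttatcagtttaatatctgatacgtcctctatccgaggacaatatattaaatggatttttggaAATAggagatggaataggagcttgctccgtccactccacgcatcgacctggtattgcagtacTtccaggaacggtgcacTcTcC
U2 copy: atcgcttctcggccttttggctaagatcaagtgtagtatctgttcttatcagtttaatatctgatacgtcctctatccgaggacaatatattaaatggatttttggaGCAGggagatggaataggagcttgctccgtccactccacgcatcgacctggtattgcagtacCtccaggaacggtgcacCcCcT
Counted from 1 at the 5′ end, with the base of RNU2-2P before the position, the substitutions are A108G, A109C, T110A, A111G, T170C, T187C, T189C and C191T. Bases 1 to 107 are identical, so a fragment from that stretch does not tell these genes apart. In the U4 pair, RNU4-2 (chr12:120291763-120291903, minus strand, 141 bases) and RNU4-1 (chr12:120293097-120293237, minus strand, 141 bases), capitals mark the 4 differing positions.
RNU4-2: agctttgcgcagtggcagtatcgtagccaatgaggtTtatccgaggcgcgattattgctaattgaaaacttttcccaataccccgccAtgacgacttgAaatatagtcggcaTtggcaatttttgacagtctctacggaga
RNU4-1: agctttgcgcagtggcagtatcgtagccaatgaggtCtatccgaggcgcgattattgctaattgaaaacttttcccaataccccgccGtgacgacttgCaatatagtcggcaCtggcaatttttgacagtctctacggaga
With the base of RNU4-1 before the position, these are C37T, G88A, C99A and C113T, an identity of 97.2% with a longest identical run of 50 bases.

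A short T-rich stretch of the kind that the Sm ring binds was found as ATTTTTG in RNU2-2P, RNU4-1, RNU4-2, RNU12 and RNU4ATAC and as ATTTTTTG in RNU11. Searched on the transcript strand, the letters ATTTTTG occurred in 6.11% of the 1900 snRNA transcripts of the annotation, ATTTTTTG in 1.32%, and either in 7.42%. The letters GTAGTA, within the part of U2 that pairs with the branch point, were found in RNU2-2P and in 3.58% of the transcripts. These matches describe the letters and do not locate a bound site. The minor spliceosome members lie at chr1:28648600-28648733 (RNU11, plus strand), chr22:42615244-42615393 (RNU12, plus strand) and chr2:121530881-121531007 (RNU4ATAC, plus strand). None of these 6 members was identical in sequence to another snRNA gene of the annotation.

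The day 30 libraries held 9688839, 12924842 and 5013643 counts in total, against 7758817, 7178453 and 8794008 in the day 0 libraries. Rose and fell are used below for genes at an adjusted p under 0.05 between the days by edgeR's quasi-likelihood test. All 8 neuronal markers rose and summed to 6260 to 7570 CPM (the usual scaling of counts by the library total) on day 30 and 191 to 206 CPM on day 0. All 7 tested hypothalamic and arcuate markers of 8 rose, at 1520 to 2200 CPM on day 30 and 1.71 to 2.32 CPM on day 0, where NKX2-1 and OTP had no counts. All 8 pluripotency markers fell, to 35.4 to 45.7 CPM on day 30, against 5880 to 6500 CPM on day 0. Of 8 glial markers 5 were tested and 3 fell, with sums of 25.8 to 42.8 CPM on day 30 and 75.5 to 94.7 CPM on day 0, where S100B had no counts. Day 30 replicate 3 stood apart by its mesenchymal and endothelial markers, which summed to 173, 646 and 4590 CPM in the day 30 libraries and to 364, 489 and 476 CPM in the day 0 libraries. Of those 8 markers 4 were tested, 3 rose and 1 fell, and DCN had no counts on day 0. The part of these cells in the snRNA values was not tested, and the values without that library are given below. The labels do not say whether replicates were separate cultures, so every p-value here covers only library-to-library spread, which may be technical. Between these bulk libraries, fewer cells of a type and less RNA per cell cannot be told apart.

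Of the 10 members, RNU2-2P and RNU4-2 had higher CPM in every day 30 library than in any day 0 library. RNU5A-1, RNU5D-1, RNU5E-1 and RNU12 had lower CPM in every day 30 library, and the ranges of RNU4-1, RNU5B-1, RNU11 and RNU4ATAC overlapped. These counts of 2 higher and 4 lower among 10 stand against a background in which the ranges of 79.4% of the 18040 tested genes did not overlap, 43.5% higher and 35.9% lower on day 30. The members were chosen on this contrast, so nothing is read from the comparison. The filter on low counts, edgeR's filterByExpr, was passed by 7 members, and RNU5B-1, RNU5E-1 and RNU4ATAC did not pass it. Without day 30 replicate 3 the same 6 members had ranges that did not overlap, in the same directions, and the range of RNU4ATAC lay above that of day 0 as well.

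**Figure D1:**
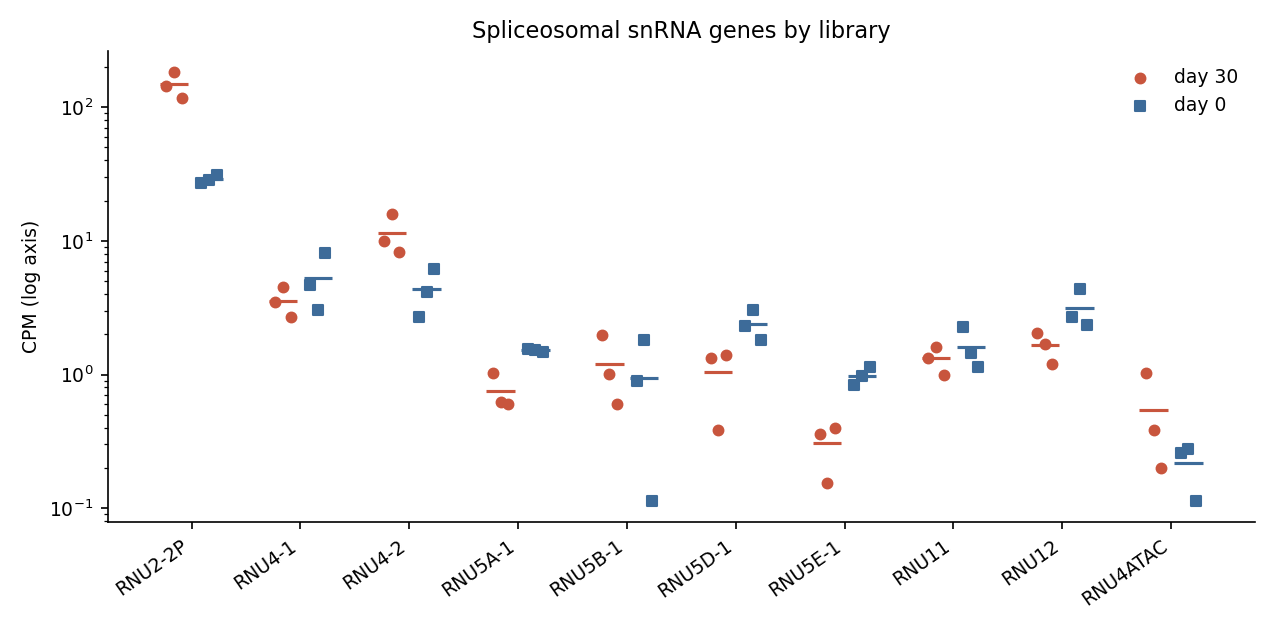
CPM of the 10 snRNA genes in each library on a log axis, with day 30 as circles and day 0 as squares side by side for each gene. Each symbol is 1 library and each bar the mean of 3, and RNU2-2P stands above the others on both days, at 149 CPM on day 30 against 28.8 CPM on day 0.

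RNU2-2P, which encodes a U2 snRNA, had the highest value of the members and the largest difference on the log2 scale. It was at 145, 183 and 118 CPM in the day 30 libraries and at 27.0, 28.4 and 31.0 CPM in the day 0 libraries. The lowest day 30 library was several times the highest day 0 library, and the day 0 libraries were close together. The means were 149 ± 32.8 CPM on day 30 against 28.8 ± 2.02 CPM on day 0 (SD, n = 3 each), a fold of 5.16. The fitted log2 fold change was 2.28 ± 0.18 (approximate SE), or 2.45 without day 30 replicate 3. The values rest on 4362.42 counts in all on day 30 (95% Poisson interval 4230 to 4490) and 686 on day 0 (636 to 739). Some are fractions of a read, and these intervals cover counting error only.

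RNU2-2P lies at the 5′ end of WDR74, a gene on the same strand (chr11:62832342-62841809) whose protein acts in ribosome assembly, and the reads of RNU2-2P appear in the value of WDR74 too. The counts of both genes had the same fractional part in 6 of 6 libraries. RNU2-2P corresponded to 90.2%, 90.7% and 88.4% of the counts listed for WDR74 in the day 30 libraries, against 37.9%, 36.5% and 39.2% in the day 0 libraries. As listed, WDR74 was higher on day 30, at 165 ± 34.5 CPM against 76 ± 4.2 CPM on day 0, a log2 fold change of 1.03 ± 0.16. With the RNU2-2P counts subtracted, a step added once the shared reads had been seen in the data, the direction turned. The subtraction assumes that every RNU2-2P count was also listed for WDR74. WDR74 was then at 15.8, 18.7 and 15.6 CPM on day 30, against 44.2, 49.5 and 48.0 CPM on day 0. Its log2 fold change was then −1.58 ± 0.14, given as a description with no test because the subtracted counts are those of a member. What remained for WDR74 was thus lower on day 30 in every library, while the shared reads were higher. How the counting assigned reads to overlapping genes was not stated.

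The other U2 genes had the opposite direction to RNU2-2P. The 89 other U2 entries summed to 13.8, 14.2 and 18.2 CPM in the day 30 libraries and to 52.8, 81.9 and 93.1 CPM in the day 0 libraries. All day 30 sums were below all day 0 sums, with means of 15.4 ± 2.4 CPM on day 30 against 76 ± 20.8 CPM on day 0. RNU2-2P made up 91.3%, 92.8% and 86.7% of the U2 reads on day 30 and 33.8%, 25.8% and 25.0% on day 0, so it held most U2 reads on day 30 and the smaller part on day 0. The U2 family as a whole was at 164 ± 31 CPM on day 30 against 105 ± 22.7 CPM on day 0, a smaller difference than that of RNU2-2P by itself.

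**Figure D2:**
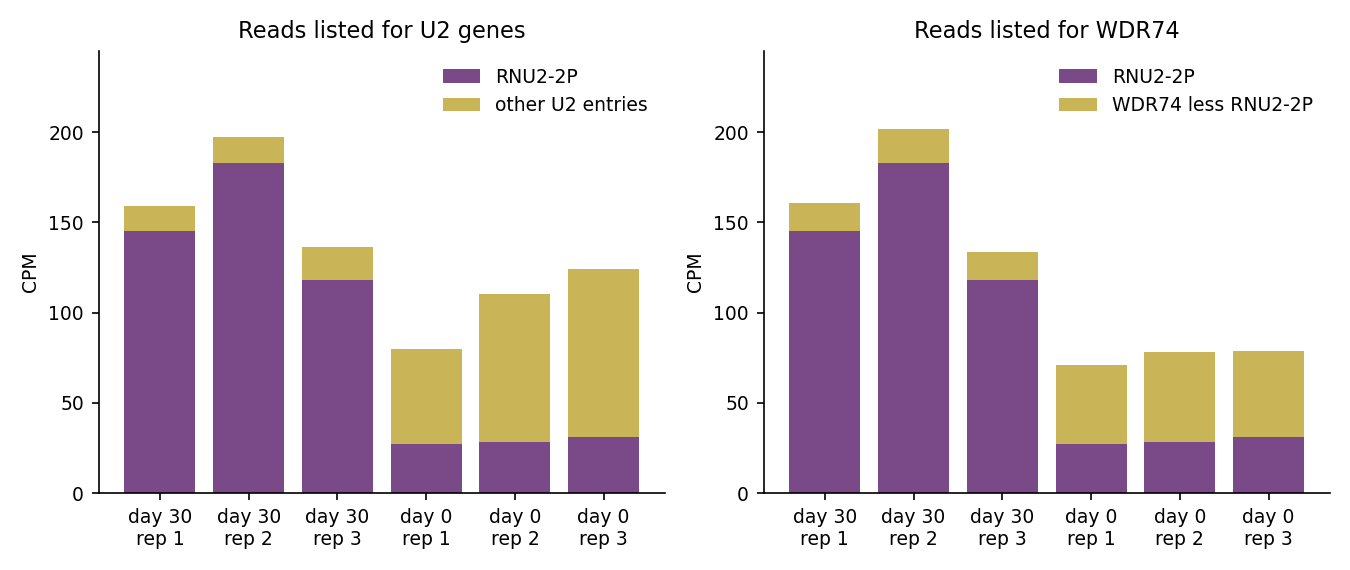
Stacked bars of CPM in each library, with the day 30 libraries left of the day 0 libraries. The left panel splits the reads listed for U2 genes into RNU2-2P and the other U2 entries, and the right panel splits those listed for WDR74 into RNU2-2P and the rest. In both panels RNU2-2P forms most of the day 30 bars and the smaller part of the day 0 bars.

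Of these U2 entries, 4 beside RNU2-2P passed the filter on low counts, all unnamed copies in an array on chromosome 17, and 3 of them fell by edgeR's test. The copy shown above was at 3.49 ± 1.22 CPM on day 30 against 30.1 ± 11.7 CPM on day 0, a log2 fold change of −3.32 ± 0.36 (adjusted p = 1.01e-05). The copy at chr17:43273101-43273292 was at 0.258, 0.387 and 0.997 CPM on day 30, against 9.11, 32.2 and 38.9 CPM on day 0, a log2 fold change of −5.99 ± 0.69 (adjusted p = 1.45e-05). The copy at chr17:43241180-43241370 had −2.18 ± 0.27 (adjusted p = 2.49e-05). The copy at chr17:43245674-43245864 had −0.25 ± 0.58 (adjusted p = 0.703), and 1.02 without day 0 replicate 1. That copy was at 3.11, 2.88 and 4.22 CPM on day 30, against 8.35, 1.63 and 1.24 CPM on day 0, so day 0 replicate 1 alone was high. Each of the 4 differs from RNU2-2P by 8 substitutions, the copy at 43273101 also by 1 gap position, and the division of reads among them and RNU2-2P is uncertain. Of these copies 3 had fractional counts in all 6 libraries. RNU2-1, the symbol of a canonical U2 gene, was listed at 0.25 counts in all on each day.

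The U4 genes, which encode the snRNA that keeps U6 inactive until the spliceosome is activated, differed from each other. RNU4-2 was at 9.91, 15.9 and 8.28 CPM on day 30, against 2.71, 4.18 and 6.14 CPM on day 0. The ranges did not overlap, although the lowest day 30 library and the highest day 0 library were close. RNU4-2 averaged 11.4 ± 4.04 CPM on day 30 against 4.34 ± 1.72 CPM on day 0, a fold of 2.62 and a fitted log2 fold change of 1.31 ± 0.34 (1.51 without day 30 replicate 3). RNU4-1 was at 3.51, 4.49 and 2.69 CPM on day 30, against 4.64, 3.06 and 8.07 CPM on day 0. Its ranges overlapped, and its log2 fold change of −0.62 ± 0.37 lay between −0.91 and −0.13 with any 1 library left out.

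Taken as a share of the reads of the pair, RNU4-2 held 73.8% (95% Wilson interval 65.7 to 80.6), 78.0% (72.7 to 82.6) and 75.5% (63.7 to 85.6) on day 30. On day 0 it held 36.8% (25.5 to 49.8), 57.7% (44.2 to 70.1) and 43.2% (34.8 to 52.0). The day 30 shares lay within a few points of each other and above all day 0 shares, which were more spread. The means were 75.8% ± 2.11 on day 30 and 45.9% ± 10.7 on day 0 (SD, n = 3 each), from 449 and 234 counts of the pair. The share does not depend on the scaling of the libraries, though it does depend on how reads from the identical stretches were divided.

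**Figure D3:**
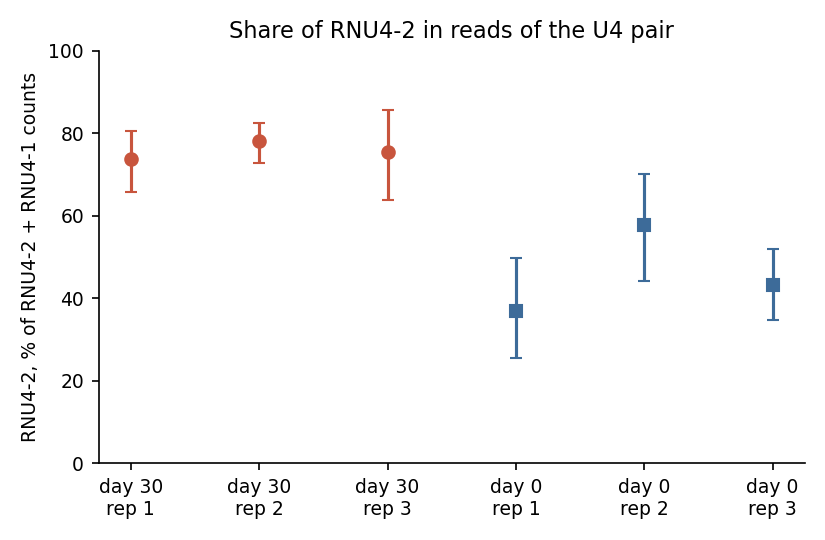
Share of RNU4-2 in the summed counts of RNU4-2 and RNU4-1 in each library, in percent, with 95% Wilson intervals that cover counting error. The day 30 libraries (circles) lie between 73.8% and 78.0%, all above the day 0 libraries (squares), which lie between 36.8% and 57.7%.

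The 4 U5 genes, which encode variants of the snRNA that aligns the exons in both spliceosomes, had low counts. RNU5A-1 was at 1.03, 0.619 and 0.598 CPM on day 30, against 1.55, 1.53 and 1.48 CPM on day 0. RNU5D-1 was at 1.34, 0.387 and 1.4 CPM on day 30, against 2.32, 3.06 and 1.82 CPM on day 0. Both were lower in every day 30 library. The fitted log2 fold changes were −1.07 ± 0.38 for RNU5A-1 (−0.95 without day 30 replicate 3) and −1.40 ± 0.47 for RNU5D-1 (−1.57 without it). The alternative fit with DESeq2 gave larger SEs, at −1.10 ± 0.68 for RNU5A-1 and −1.38 ± 0.62 for RNU5D-1. Summed by day, RNU5A-1 rested on 21 counts for day 30 (Poisson interval 13.0 to 32.1) against 36 for day 0 (25.2 to 49.8), which overlapped. The intervals of RNU5D-1 did not overlap, at 16.2 to 36.9 for day 30 against 42.3 to 72.7 for day 0. RNU5E-1 had 3.5, 2 and 2 counts on day 30 and 6.5, 7 and 10 counts on day 0, or 0.305 ± 0.131 CPM on day 30 against 0.983 ± 0.15 CPM on day 0. It too was lower in each day 30 library, with a log2 ratio of mean CPM of −1.69.

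RNU5B-1 did not share this direction. It had 19, 13 and 3 counts on day 30 and 7, 13 and 1 counts on day 0, which gave overlapping ranges of 0.598 to 1.96 CPM on day 30 and 0.114 to 1.81 CPM on day 0. Its log2 ratio of mean CPM was 0.33, and turned to −0.23 without day 30 replicate 1 and to −0.19 without day 0 replicate 3. Of the reads of the 4 U5 genes, RNU5B-1 held 36.1% ± 14.1 on day 30 and 14.4% ± 11.1 on day 0, and RNU5D-1 31.0% ± 14.6 on day 30 and 41.0% ± 0.836 on day 0. These shares rest on 88.5 and 136.5 counts in all on day 30 and day 0, and the intervals of single libraries were wide, at 7.05% to 45.2% for RNU5B-1 in day 30 replicate 3. All U5 entries together were at 4.5 ± 1.25 CPM on day 30 against 7.63 ± 1.21 CPM on day 0.

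Among the minor spliceosome members, RNU12, whose snRNA pairs with the branch point of minor introns, was at 2.06, 1.7 and 1.2 CPM on day 30, against 2.71, 4.39 and 2.33 CPM on day 0. It was lower in every day 30 library, with a fitted log2 fold change of −0.94 ± 0.36 (−0.78 without day 30 replicate 3). The separation was narrow, as the nearest libraries, day 30 replicate 1 and day 0 replicate 3, held 20 and 20.5 counts of RNU12. Summed by day, RNU12 rested on 48 counts for day 30 (95% Poisson interval 35.4 to 63.6) against 73 for day 0 (57.2 to 91.8). These intervals overlapped, so counting error could cover the difference. RNU11, whose snRNA recognises the 5′ splice site of those introns, was at 1.34, 1.62 and 0.997 CPM on day 30, against 2.26, 1.46 and 1.14 CPM on day 0. These ranges overlapped, and its log2 fold change was −0.30 ± 0.38. RNU4ATAC, whose snRNA pairs with U6atac, had 10, 5 and 1 counts on day 30 and 2, 2 and 1 counts on day 0. The sums were 16 counts on day 30 (95% Poisson interval 9.15 to 26.0) and 5 on day 0 (1.62 to 11.7), too few to place the genes in an order of change. Its log2 ratio of mean CPM was 1.32, and 0.44 without day 30 replicate 1. RNU6ATAC, the partner of RNU4ATAC, had 23 counts on day 30 and 22 on day 0, too few to pass the filter.

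Other transcripts overlap 5 further members. On the same strand, an unnamed lincRNA covers RNU11 and had the same counts as RNU11 in 6 of 6 libraries, so these entries cannot be told apart. The unnamed lincRNA over RNU12 held at least as many counts as RNU12 in 6 of 6 libraries, at 1.79 ± 0.521 CPM on day 30 against 3.94 ± 1.66 CPM on day 0. A further lincRNA lies over RNU5E-1, at 1.77 ± 0.721 CPM on day 30 against 1.86 ± 0.453 CPM on day 0, where the member itself was lower on day 30. On the opposite strand, PARP16 over RNU5A-1 rose, at 14.7 ± 2.6 CPM on day 30 against 4.11 ± 1.15 CPM on day 0 (log2 fold change 1.74 ± 0.25, edgeR adjusted p = 7.34e-05). CLASP1, a microtubule-binding protein gene over RNU4ATAC, rose as well, at 237 ± 8.68 CPM on day 30 against 117 ± 10.4 CPM on day 0 (0.93 ± 0.10, edgeR adjusted p = 8.21e-06). CLASP1-AS1 lies over RNU4ATAC on its own strand and held 0.494 ± 0.396 CPM on day 30 against 0.519 ± 0.275 CPM on day 0. The strand setting of the counting was not stated, so reads of these pairs may not be told apart. No annotated gene overlaps RNU4-1, RNU4-2, RNU5B-1 or RNU5D-1.

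Compared per length, as CPM per kilobase, the members spanned a wide range on both days. On day 30 RNU2-2P was at 778 ± 172, RNU4-2 at 80.7 ± 28.6 and RNU4-1 at 25.3 ± 6.37 CPM per kilobase, and none of these overlapped with the next in the order. The other 7 followed from RNU12 at 11 ± 2.9 to RNU5E-1 at 2.54 ± 1.1 CPM per kilobase, and each overlapped with its neighbour. On day 0 RNU2-2P led at 151 ± 10.6 CPM per kilobase, and RNU4-1 at 37.3 ± 18.2, RNU4-2 at 30.8 ± 12.2, RNU12 at 20.9 ± 7.3 and RNU5D-1 at 20.7 ± 5.4 CPM per kilobase overlapped with their neighbours. RNU5D-1 did not overlap with the next, RNU5A-1, at 13.1 ± 0.311 CPM per kilobase. The upper and lower members were not separated, as RNU11, below RNU5A-1, reached 16.8 and RNU5D-1 began at 15.7 CPM per kilobase. RNU4ATAC was last at 1.71 ± 0.707. The order of the U4 genes thus differed between the days, with RNU4-2 above RNU4-1 on day 30 and no separation of them on day 0. These levels are of reads that were counted, in libraries made with a total RNA kit and not a small RNA kit. How reads of overlapping genes and near-identical copies were divided was not stated, so the order may depend on it.

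As a share of all reads of spliceosomal snRNA genes, which have 1742 entries, the 10 members held 53.3% ± 8.03 on day 30 and 21.2% ± 1.56 on day 0 (SD, n = 3 each), and RNU2-2P alone 46.5% ± 6.82 on day 30 and 12.4% ± 0.961 on day 0. The sum over these entries was 318 ± 31.2 CPM on day 30 against 232 ± 16.8 CPM on day 0. Without the members it was 148 ± 20.8 CPM on day 30 against 183 ± 15 CPM on day 0, so the direction of the sum depended on the members. Most of the members' reads on both days were those of RNU2-2P, so this is not a trait of the members as a set. By family, U1 entries were lower on day 30, at 28.3 ± 0.538 CPM against 46.3 ± 9.74 CPM on day 0. U6 entries were higher on day 30, at 90.4 ± 16.7 CPM against 51.6 ± 8 CPM on day 0. Ranges did not overlap for either family. Most U1 and U6 entries are copies or pseudogenes, so these sums describe families and not single genes.

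Outside the members, 20 spliceosomal snRNA entries could be tested, and by edgeR's test 3 rose and 10 fell, with a median log2 fold change of −1.01. Of all tested genes 39.8% rose and 36.8% fell, with a median of 0.08. Among the U1 entries 1 of 10 rose and 4 fell. RNVU1-31, a variant U1 gene, was at 0.342 ± 0.161 CPM on day 30 against 13.7 ± 2.04 CPM on day 0, a log2 fold change of −5.27 ± 0.33 (adjusted p = 1.17e-07). RNU1-149P, a U1 pseudogene, had 77 counts over the day 30 libraries and was listed at 0 on day 0, at least 22-fold higher on day 30 against a floor of 3 counts over the group. Among the U6 entries 2 of 6 rose and 3 fell. RNU6-8 was at 0.926 ± 0.354 CPM on day 30 against 2.37 ± 0.509 CPM on day 0, a log2 fold change of −1.5 ± 0.41 (adjusted p = 0.00596). Of 14 further snRNA genes on a list of named loci, RNU6-8 was the only one to pass the filter on low counts, and RNU1-1 had 19 counts on day 30 and 10 on day 0. RN7SK, the RNA that holds an elongation factor of RNA polymerase II inactive and is not spliceosomal, rose to 12800 ± 1030 CPM on day 30, against 5380 ± 494 CPM on day 0 (1.16 ± 0.13, adjusted p = 1.5e-05).

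Most tested genes for the proteins of the major spliceosome's particles fell. The counts for this and the following lists stand against a background of 36.8% of all tested genes that fell and 39.8% that rose. All 8 genes of the Sm ring, which clamps the T-rich stretch described above, fell, with a median log2 fold change of −2.26. SNRPE was lowest, at 14.7 ± 1.47 CPM on day 30 against 93.8 ± 7.67 CPM on day 0 (−2.76 ± 0.14, adjusted p = 2.84e-08). SNRPD3 was nearest to 0, at 64.5 ± 7.95 CPM on day 30 against 102 ± 7.18 CPM on day 0 (−0.74 ± 0.14, adjusted p = 0.000451). In libraries in which the mRNAs of the ring proteins stood lower, the members had no common direction. RNU2-2P and RNU4-2 stood higher there, RNU5A-1, RNU5D-1, RNU5E-1 and RNU12 stood lower, and the ranges of the others overlapped.

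Of 15 genes for U1 and U2 proteins 14 fell, with a median of −1.25. SNRPA, whose protein binds a stem-loop of U1, was at 13 ± 1.11 CPM on day 30 against 92.7 ± 3.04 CPM on day 0 (−2.92 ± 0.12, adjusted p = 7.3e-09). SNRNP70, which encodes another U1 protein, had −0.12 ± 0.11 (adjusted p = 0.302), and the branch point factor subunit SF3B1 fell by 0.46. Of 24 genes for U4, U5 and U6 proteins 21 were tested and 18 fell, with a median of −1.10. LSM4, a subunit of the ring on the 3′ end of U6, was at 17.6 ± 3.3 CPM on day 30 against 125 ± 0.969 CPM on day 0 (−2.90 ± 0.15, adjusted p = 2.91e-08). SNRNP27 of the U4/U6.U5 particle had 0.20 ± 0.15 (adjusted p = 0.253). The U5 helicase gene SNRNP200 and the U5 GTPase gene EFTUD2 fell by 0.89 and 1.10. PRPF8, the gene of the largest U5 protein, was listed at 5 counts on day 30 and 4 on day 0 (sums of 3 libraries), PRPF31 at 6 and 5 counts, and LSM2 at 0, so these were not tested. Such counts are not read as absence of the mRNAs, as the handling of reads was not stated, and their cause was not tested. SF3B1, SNRNP200, EFTUD2, PRPF8, PRPF31 and LSM2 were chosen after their values were seen.

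The genes for proteins of the minor spliceosome showed no common direction. Of 13 tested, 3 rose, 3 fell and 7 did not pass, with a median of −0.13. RBM48, which helps to hold U6atac, was at 19.1 ± 2.85 CPM on day 30 against 9.72 ± 1.95 CPM on day 0 (0.85 ± 0.20, adjusted p = 0.00255). RNPC3, which bridges U11 and U12, rose by 0.78, and the U11 protein gene SNRNP35 by 0.58. SNRNP48, which encodes another U11 protein, was at 15.1 ± 2.9 CPM on day 30 against 33.4 ± 2.69 CPM on day 0 (−1.26 ± 0.15, adjusted p = 1.87e-05). SNRNP25 and ZCRB1 fell too, and PDCD7 had −0.04 ± 0.14 (adjusted p = 0.8). RNPC3, SNRNP35, SNRNP25 and ZCRB1 were chosen after their values were seen.

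**Figure D4:**
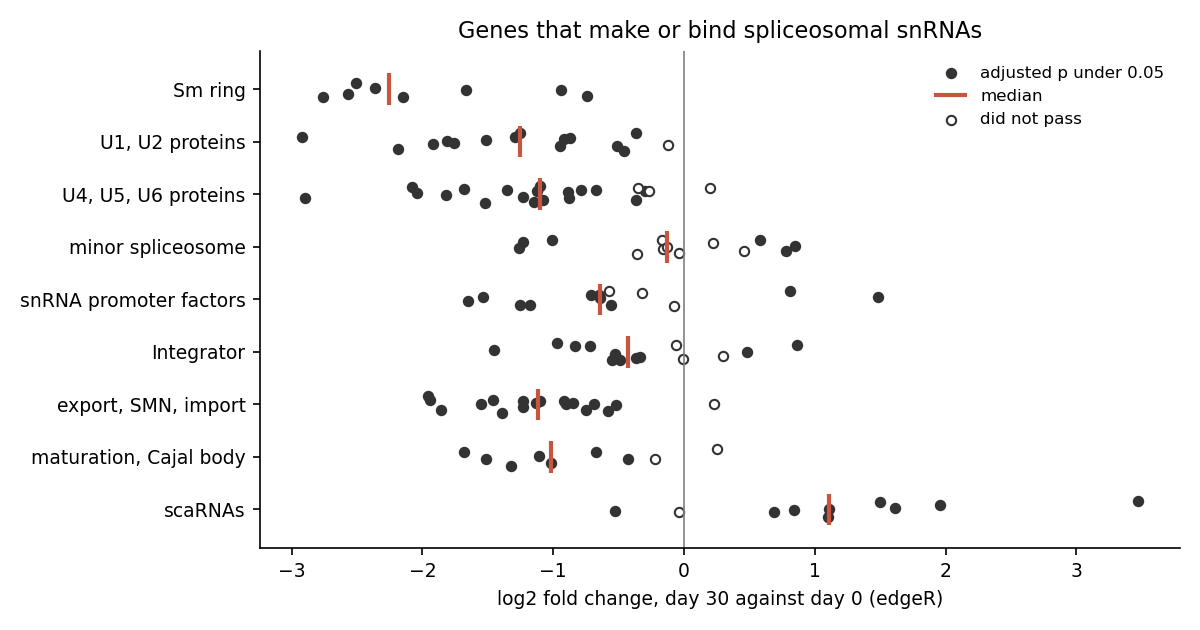
Log2 fold change of day 30 against day 0 for each tested gene of 9 lists, with filled circles for genes at an adjusted p under 0.05 by edgeR and open circles for the others. The red line is the median of a list, and the height of a point within its row has no meaning. The medians run from −2.26 for the Sm ring to 1.10 for the small Cajal body RNAs (scaRNAs), the only list with a median above 0.

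Genes that act on the making of snRNAs were also mostly lower on day 30. Of 13 tested promoter and elongation factors 8 fell and 2 rose, with a median of −0.64. SP1, a transcription factor, was at 52.5 ± 7.9 CPM on day 30 against 155 ± 10.1 CPM on day 0 (−1.65 ± 0.13, adjusted p = 6.34e-07). ZC3H8, of the little elongation complex that serves snRNA genes, rose, at 30.1 ± 0.915 CPM on day 30 against 10.1 ± 0.483 CPM on day 0 (1.48 ± 0.13, adjusted p = 2.07e-06). SNAPC4, the large subunit of the complex that binds snRNA promoters, had −0.08 ± 0.22 (adjusted p = 0.737). Of 14 tested subunits of Integrator, the complex that cuts the 3′ ends of snRNA precursors, 9 fell and 2 rose, with a median of −0.43. INTS13 was at 26.5 ± 2.33 CPM on day 30 against 67.4 ± 2.11 CPM on day 0 (−1.45 ± 0.12, adjusted p = 8.46e-07). INTS12 rose, at 18.9 ± 2.09 CPM on day 30 against 9.76 ± 1.68 CPM on day 0 (0.86 ± 0.17, adjusted p = 0.00089), and INTS4 had −0.01 ± 0.13 (adjusted p = 0.94). Without day 0 replicate 2 or day 30 replicate 1 the number of Integrator subunits that rose was 1.

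Of 18 tested genes for capping, export, assembly by the SMN complex and import, 17 fell, with a median of −1.11. GEMIN4, an SMN complex gene, was at 14.2 ± 1.28 CPM on day 30 against 51.2 ± 3.68 CPM on day 0 (−1.96 ± 0.13, adjusted p = 1.87e-07), and GEMIN8 had 0.23 ± 0.18 (adjusted p = 0.261). SMN1 and SMN2, near-identical copies, had 8 and 2 counts in all on day 30 and as many on day 0, and did not pass the filter. Of 9 genes for 3′ end maturation, U6 capping and Cajal body structure, 7 fell, with a median of −1.02. SSB, which encodes the La protein that binds new RNA polymerase III transcripts such as U6, was at 74.9 ± 10 CPM on day 30 against 226 ± 12.3 CPM on day 0 (−1.68 ± 0.14, adjusted p = 9.97e-07). TUT1, the enzyme that adds U to the end of U6, had −0.22 ± 0.20 (adjusted p = 0.334). Over all 111 tested protein genes of these lists, 84 fell, 7 rose and 20 did not pass, with a median of −0.89. Without day 30 replicate 3, 13 of the U1 and U2 genes, 16 of the U4, U5 and U6 genes and 7 Integrator subunits fell, and the counts of rises and falls in the other lists were as given.

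Most tested small Cajal body RNAs (scaRNAs), which guide the chemical modification of snRNAs, went the other way from the protein genes. Of 16 listed 10 were tested, and 8 rose and 1 fell, with a median of 1.10. Of the untested, named after their values were seen, SCARNA8 had 0.5 counts in all on day 30 and 18 on day 0. SCARNA14 and SCARNA16 also had lower CPM in every day 30 library, and the ranges of SCARNA15, SCARNA20 and SCARNA22 overlapped. SCARNA21 was at 172 ± 13.5 CPM on day 30 against 14.5 ± 2 CPM on day 0 (3.47 ± 0.13, adjusted p = 3.01e-09). SCARNA12 was at 53.2 ± 7 CPM on day 30 against 71.8 ± 11.8 CPM on day 0 (−0.53 ± 0.14, adjusted p = 0.00441), and SCARNA2, a guide for U2, had −0.04 ± 0.12 (adjusted p = 0.753). The most read, chosen after their values were seen, were SCARNA7 at 612 ± 78.1 CPM on day 30 against 147 ± 11 CPM on day 0 (1.96 ± 0.13, adjusted p = 1.97e-07) and SCARNA10 at 398 ± 30.7 CPM on day 30 against 132 ± 19.9 CPM on day 0 (1.5 ± 0.12, adjusted p = 1.03e-06). Several of these lie in protein genes on the same strand, which can share reads with them. CHD3, over SCARNA21, rose by 2.60 ± 0.12 on the log2 scale (adjusted p = 1.29e-08). NCAPD2, over SCARNA10, fell by 3.39 ± 0.14 (adjusted p = 5.81e-09), PHB2, over SCARNA12, fell by 1.54 ± 0.10 (adjusted p = 1.57e-07), and KPNA4, over SCARNA7, had −0.26 ± 0.14 (adjusted p = 0.122). Unnamed entries on the same strand over SCARNA10 and SCARNA2 had the same fitted values as these scaRNAs, 1.5 ± 0.12 and −0.04 ± 0.12, and cannot be told apart from them. SCARNA10 thus rose where the protein gene around it fell.

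The 5 tested genes with the profile most like that of RNU2-2P, by Euclidean distance of centred log2 CPM over the 6 libraries, were MXD1, ENSG00000289094, C17orf100, PREPL and NPTX2. The distances were 0.217, 0.261, 0.264, 0.32 and 0.32 on the log2 scale. MXD1, whose protein pairs with MAX, was at 46.2 ± 7.94 CPM on day 30 against 8.93 ± 0.876 CPM on day 0. PREPL, a peptidase-like gene, was at 444 ± 44.5 CPM on day 30 against 89.2 ± 4.83 CPM on day 0. NPTX2, which encodes a secreted pentraxin of synapses, was at 83.8 ± 20.6 CPM on day 30 against 15.6 ± 1.14 CPM on day 0. With 6 libraries in a pair of groups, such profiles reflect mainly the difference between the days.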

How the data were processed

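Per the labels' protocols, RNA was taken up in TRIzol and ribosomal RNA was depleted before library preparation with a stranded TruSeq kit for total RNA. The submitters' processing notes name FastQC 0.11.9 and hg38. Neither they nor the labels, as used here, give the aligner, the counter, its strand setting or its handling of reads with several matching places. The authors deposited expected counts per gene (unit read from the values: 92.6% are whole numbers and the rest fractions), rounded for the tests. The name expected counts was inferred here from the fractions and does not imply that a model made them. How the fractions arose was not stated, and RNU2-2P and WDR74, which overlap, shared fractional parts in 6 of 6 libraries. Columns of values not used numbered 0, and 58298 entries had a position and type in GENCODE release 29.

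Differential expression was tested over 18040 genes in R 4.3.3 with edgeR 4.0.16 (filterByExpr, TMM, quasi-likelihood test, Benjamini-Hochberg adjusted p under 0.05). CPM values are scaled by total deposited counts, and the log2 fold changes by TMM, under which the median of all tested genes was 0.08. The SE was approximated from the log2 fold change and the F statistic, as its size over the root of F. Intervals are at 95%. The fit was tested on simulated data in which the changed genes had mean counts above 50. Most members have fewer counts, so that test does not cover their values. Alternatives were DESeq2 1.42.0, other scalings, other filters on low counts, the replicate block and leaving out each library. The labels give no batch.

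Named were all members, for each list the passing gene with the largest rise and the largest fall and the gene nearest to 0, overlapping genes, and the 5 nearest profiles. Outside this rule, and chosen after their values were seen, were the U2 copies of chromosome 17, RNU2-1, RNU6ATAC, RNU1-1, RNVU1-31, RNU1-149P, RN7SK, SMN1, SMN2, the genes around scaRNAs and those so named in the text. The members and lists were chosen with earlier results of these data known. The sequences of the U5 genes are not reported here.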

Additional observations from a re-analysis of the deposited data

How the results depend on the processing

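Of the counts of lists and of all genes and the members' values, 167 comparisons under other scalings, filters, DESeq2 or the replicate block and 189 with 1 library left out stayed within 1.5 times the count reported or, for a member, within the SD of its log2 CPM between replicates, and 2 and 3 moved. For members of few counts that spread is wide, so such members stay within it easily. RNU5B-1 (0.33 with all libraries) lay between −0.23 and 1.23 with 1 library left out. RNU4ATAC (1.32) then lay between 0.44 and 1.71, and RNU11 (−0.30) between −0.50 and −0.02. Lists with 0 rises that stayed at 0, such as the Sm ring, are also among the comparisons that stayed. With a mean count of at least 50 the number of other snRNA genes that fell was 0 (1 in the report), because RNU6-8 was no longer tested, and with no filter 2 scaRNAs fell (1 in the report). The mean count of at least 50 left RNU2-2P (log2 fold change 2.37) and RNU4-2 (1.40) among the members. With 1 library left out the number of Integrator subunits that rose lay between 1 and 3, and the log2 fold change of RNU5A-1 between −1.40 and −0.88; the cause was not tested. Over the same omissions it lay between 2.11 and 2.45 for RNU2-2P, 0.98 and 1.69 for RNU4-2, −1.81 and −0.87 for RNU5D-1, and −1.15 and −0.64 for RNU12.

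Values near 0 changed sign. With total counts only, PDCD7 was at 0.05, SNAPC4 at 0.01, INTS4 at 0.08, SCARNA2 at 0.05 and RNVU1-15 at 0.02; with the protein-coding library size, PDCD7 was at 0.03, INTS4 at 0.06 and SCARNA2 at 0.02; with a mean count of at least 50, PDCD7 was at 0.04, SNAPC4 at 0.00, INTS4 at 0.08 and SCARNA2 at 0.04. With 1 library left out the ranges were −0.16 to 0.03 for PDCD7, −0.25 to 0.09 for SNAPC4, −0.05 to 0.08 for INTS4, −0.15 to 0.01 for SCARNA2, −0.38 to 0.25 for RNVU1-15, −0.26 to 0.56 for RNVU1-29 and −0.68 to 1.02 for the U2 copy at chr17:43245674-43245864. WDR74 was at −1.58 once the RNU2-2P reads were taken off, since these made up most of its day 30 count.

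No pairing by replicate number was seen. Deviations of same-numbered libraries correlated at 0.0746, −0.00402 and −0.0517 across genes, and 2 of 6 libraries correlated best with their own number. With so few libraries this does not show that the samples were unpaired. With the replicate block RNU2-2P was at 2.25, RNU4-2 at 1.31, RNU4-1 at −0.51, RNU5A-1 at −1.09, RNU5D-1 at −1.42, RNU11 at −0.34 and RNU12 at −0.99, 6921 genes rose and 6415 fell (7186 and 6641 without it), and the U2 copy at chr17:43245674-43245864 had 0.07. Depth limits the U5 and minor spliceosome members, as RNU4ATAC had 5 counts in all on day 0, RNU5E-1 7.5 on day 30 and RNU11 39 on day 30.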
